A study of Mus musculus with 35 samples.

Results

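The complement components C1qa, C1qb, C1qc, C3, C4b and Cfb and the complement receptors C3ar1 and C5ar1 were taken by name from a table of 27012 genes measured by RNA sequencing of the mouse heart apex, and all 8 were present in it. Hearts came from mice of strain C57Bl/6/FVB, operated at an age of 6 weeks and killed 3 days after transaortic constriction (TAC, a suture that narrows the aorta and loads the heart with pressure) or a sham operation. The 6 groups were IRS1KO TAC (alphaMHC-Cre X IRS1-flox, 6 hearts), IRS2KO TAC (alphaMHC-Cre X IRS2-flox, 6 hearts), WT TAC (IRS2-flox with no Cre named, 5 hearts, numbered without a replicate 4) and IRS1KO sham, IRS2KO sham and WT sham (6 hearts each). IRS1 and IRS2 are adaptor proteins of the insulin receptor. The alphaMHC promoter drives Cre in cardiomyocytes, so by design the floxed gene is left in the other cells of the apex, which was not tested. The design sets TAC against sham within each genotype and the genotypes against each other within each operation. The group called WT is floxed for Irs2, and neither a group with Cre alone nor one with floxed Irs1 and no Cre was analysed here, so Cre itself cannot be told apart from loss of the gene. In contrasts of IRS1KO hearts with the other genotypes, differences between the floxed lines cannot be told apart from loss of Irs1 either.

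Complement is a chain of plasma and cell-surface proteins that marks microbes and damaged cells. C1q, built from the products of C1qa, C1qb and C1qc, recognises antibody and dying cells and starts the classical pathway, in which C4 is cleaved; C3 is the protein on which the classical, lectin and alternative pathways meet, and factor B, the product of Cfb, supplies the protease of the alternative pathway. The small fragments C3a and C5a are sensed by the receptors C3ar1 and C5ar1 on myeloid cells. C1q is made mainly by macrophages, including those resident in the heart, whereas most plasma C3 comes from the liver and local C3 from stromal and immune cells.

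Values are DESeq2-normalized counts as deposited, from libraries of 11707111 to 14609467 reads. In IRS1KO hearts Irs1 averaged 27.4 normalized counts after TAC, against 181 in WT TAC hearts, and 25.9 after sham, against 233 in WT sham hearts, with no overlap between the groups. Replicate 1 of IRS1KO TAC and replicate 1 of IRS1KO sham had 0 Irs1, and the other IRS1KO hearts 16.65 to 80.29. Cardiomyocyte markers (6 genes, Myh6 and Ttn among them) were abundant in every library, with summed means of 485790, 563140 and 584740 in IRS1KO, IRS2KO and WT TAC hearts and 826510, 823700 and 845200 in the sham hearts of the same genotypes. In IRS2KO hearts Irs2 averaged 121 after TAC, against 239 in WT TAC hearts, and 123 after sham, against 217 in WT sham hearts, and neither difference passed the test (limma adjusted p = 0.695 and 1). For Irs2 these groups overlapped in both operations. WT sham replicate 2 had 564, the other WT sham hearts 93.0 to 195 and the IRS2KO sham hearts 98.1 to 138. On the first principal component of all tested genes, which held 69.7% of the variance, 3 TAC libraries lay nearest to the sham libraries: WT TAC replicate 2 at −3.02, IRS2KO TAC replicate 4 at −0.42 and IRS2KO TAC replicate 1 at 20.8. The other TAC libraries lay between 27.2 and 84.8 and the sham libraries between −57.0 and −41.2. The main results of the complement genes between genotypes are also given without those 3 libraries.

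All 8 genes are protein-coding and on the minus strand (build GRCm38, GENCODE annotation). C1qa (ENSMUSG00000036887, chr4:136895917-136898803), C1qc (ENSMUSG00000036896, chr4:136889804-136893065) and C1qb (ENSMUSG00000036905, chr4:136880129-136886187) are neighbours on chromosome 4. C4b (ENSMUSG00000073418, chr17:34728380-34743882) and Cfb (ENSMUSG00000090231, chr17:34856374-34862518) lie close to each other on chromosome 17, and C3 (ENSMUSG00000024164, chr17:57203970-57228136) lies further along it. C3ar1 (ENSMUSG00000040552, chr6:122847138-122856161) and C5ar1 (ENSMUSG00000049130, chr7:16246743-16259540) stand on chromosomes 6 and 7.

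Promoter sequence (250 bases before the RefSeq start, GRCm38.p6) was found for 5 of the 8 genes, and the 3 that held a match to a motif searched are shown. RefSeq starts differ from the GENCODE gene ends given above, except for C3. The windows of C1qc, C3ar1 (chr6:122856158-122856407) and C5ar1 (chr7:16259339-16259588) reach into their GENCODE genes, and that of C1qb stops short of its gene. The windows of C3ar1 and C5ar1 held no match to any motif searched, GAGGAA included. A part of these motifs in the levels of the genes was not tested. Capitals mark the match to the motif named for each, and all are written 5′ to 3′ on the gene's own strand, the minus strand of the chromosome.
C1qb, chr4:136886201-136886450, GAGGAA: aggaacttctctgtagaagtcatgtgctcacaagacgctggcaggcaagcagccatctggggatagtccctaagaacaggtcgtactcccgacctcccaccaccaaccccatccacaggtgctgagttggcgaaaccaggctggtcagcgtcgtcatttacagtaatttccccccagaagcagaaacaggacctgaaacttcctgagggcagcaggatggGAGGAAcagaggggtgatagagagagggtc
C1qc, chr4:136892915-136893164, GAGGAA read on the other strand: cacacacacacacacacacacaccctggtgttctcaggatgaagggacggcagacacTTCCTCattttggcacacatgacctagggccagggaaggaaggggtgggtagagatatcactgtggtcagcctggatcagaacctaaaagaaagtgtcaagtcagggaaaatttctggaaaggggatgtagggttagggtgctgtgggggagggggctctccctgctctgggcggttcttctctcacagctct
C3, chr17:57228137-57228386, TTGCNNAA: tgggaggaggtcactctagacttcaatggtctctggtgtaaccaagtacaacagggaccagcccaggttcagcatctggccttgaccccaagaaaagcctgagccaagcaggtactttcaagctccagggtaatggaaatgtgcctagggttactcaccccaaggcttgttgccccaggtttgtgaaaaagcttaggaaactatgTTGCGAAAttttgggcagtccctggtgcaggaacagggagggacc
GAGGAA is the core bound by PU.1, an ETS-family factor of macrophages, and TTGCNNAA is a form of the site of C/EBP factors. Both strands were searched, and no other motif searched overlapped these matches. The GAGGAA match began 30 bases before the RefSeq start of C1qb and 193 bases before that of C1qc, and TTGCGAAA began 45 bases before that of C3. Of 32851 mouse promoters of this length, 23.3% held GAGGAA and 9.56% held TTGCNNAA, so such letters are frequent. The STAT form TTCNNNGAA, held by 7.02% of promoters, and the forkhead form TGTTTAC, held by 3.17%, had no match in the 5 windows.

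TAC hearts held more transcript of all 3 C1q subunits and of both anaphylatoxin receptors than sham hearts, in every genotype. The C1q subunits were 2.62-fold to 3.83-fold higher, C5ar1 4.49-fold to 5.94-fold and C3ar1 5.60-fold to 6.86-fold. C4b rose by a smaller amount, 1.40-fold to 1.64-fold. C3, by contrast, had no common direction: it was 1.70-fold higher after TAC in WT hearts, lower in IRS1KO hearts (log2 fold change −0.50), and did not pass the test in IRS2KO hearts. Cfb was close to undetected throughout.

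Of the 8 genes, 7 passed the low-value filter (a mean of at least 10 normalized counts over all libraries) and Cfb did not. In IRS1KO hearts 6 of the 7 were higher after TAC and 1 lower, beside 32.4% of the 13695 tested genes higher and 31.7% lower. In IRS2KO hearts 6 were higher and 0 lower, beside 31.3% and 31.1% of all tested genes, and in WT hearts 7 were higher and 0 lower, beside 28.3% and 26.6%. The median log2 fold change of the 7 was 1.60 in IRS1KO, 1.49 in IRS2KO and 1.49 in WT hearts, against −0.01 over all tested genes in each genotype. With equal library totals, the median over all tested genes moved to 0.30, 0.33 and 0.24 in IRS1KO, IRS2KO and WT hearts and 76.8%, 79.7% and 79.7% of calls were higher, against 50.6%, 50.2% and 51.6% in the deposited scaling. The counts of the 7 under that scaling were 6 higher and 0 lower in IRS1KO, 7 and 0 in IRS2KO and 7 and 0 in WT hearts, so the fall of C3 in IRS1KO hearts passed in the deposited scaling and not under equal totals. In whole tissue, more cells of a type and more RNA per cell cannot be told apart.

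**Figure D1:**
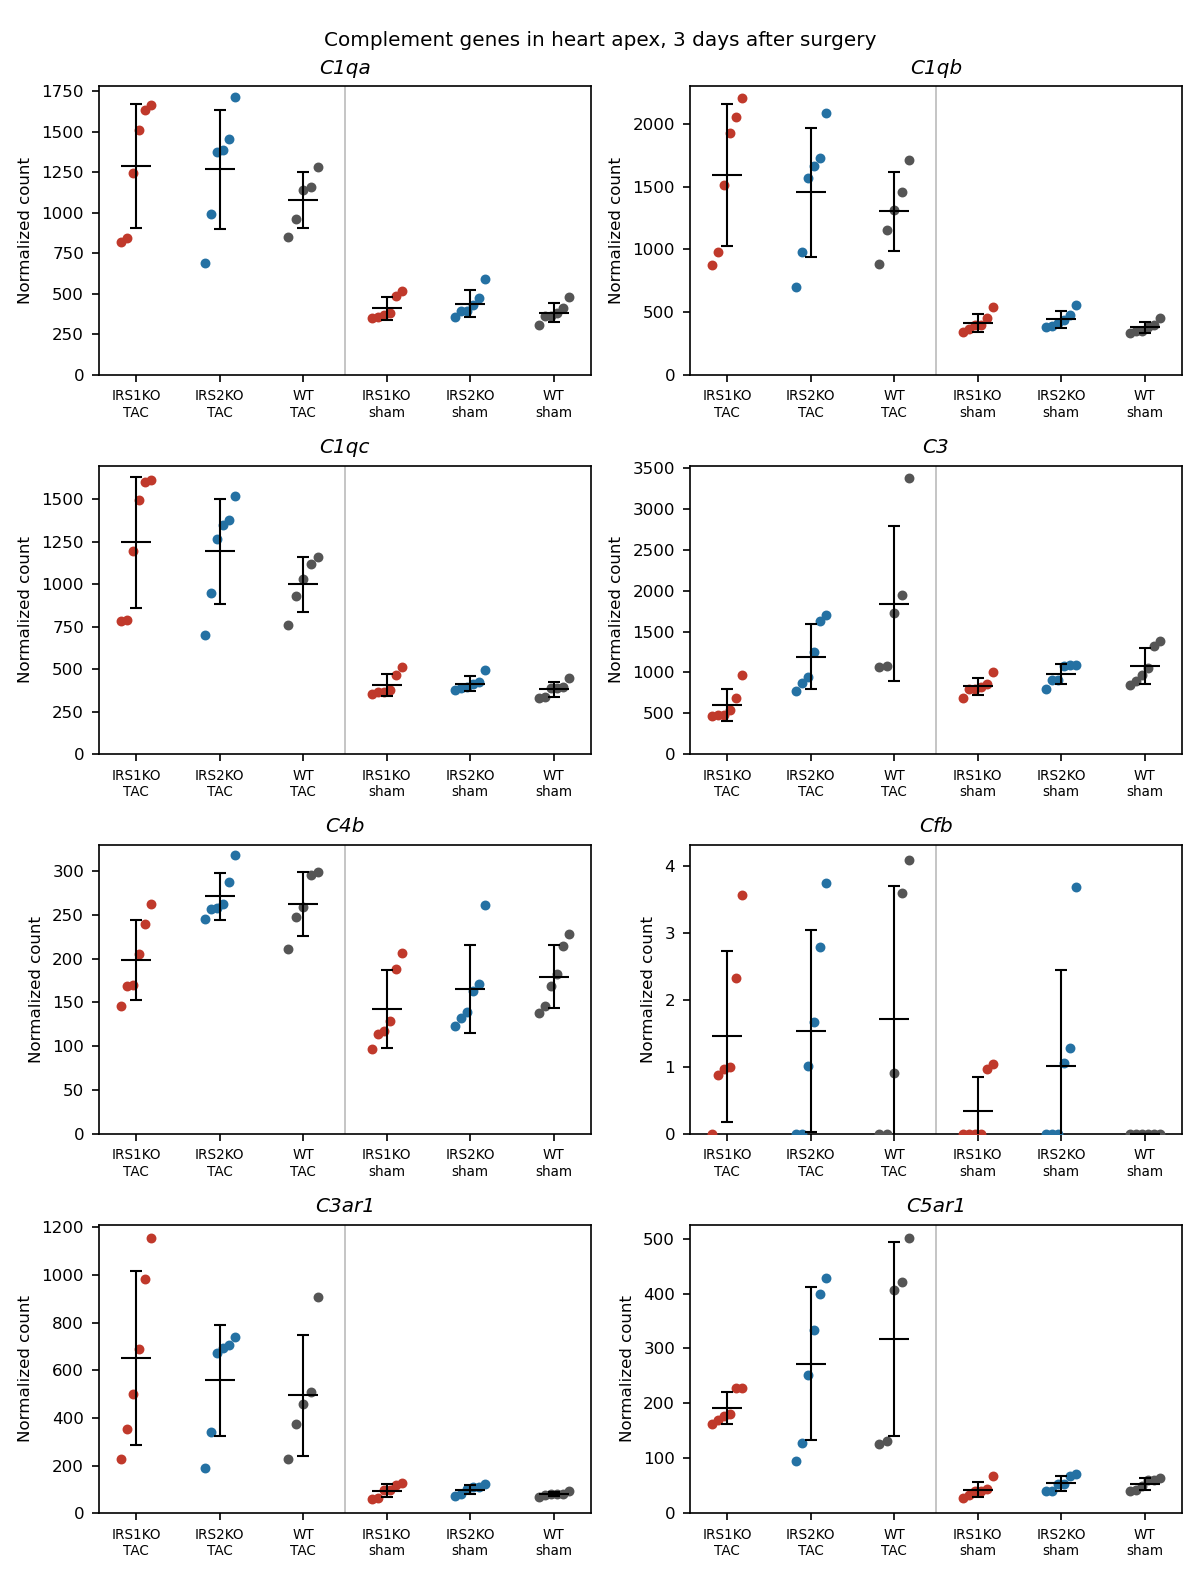
Normalized counts of the 8 complement genes in each of the 35 heart apex libraries, by group, TAC groups on the left of each panel and sham groups on the right. Points are single hearts and bars are the mean ± SD. The C1q subunits, C3ar1 and C5ar1 separate TAC from sham in every genotype, C3 is highest in WT TAC hearts (mean 1839) and lowest in IRS1KO TAC hearts (mean 608), and Cfb stays near 0.

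C1qa encodes the A chain of C1q. In IRS1KO TAC hearts its lowest, median and highest values were 821, 1378 and 1662 normalized counts, against 349, 376 and 518 in IRS1KO sham hearts. In IRS2KO TAC hearts they were 687, 1379 and 1711, against 358, 411 and 588 in IRS2KO sham hearts. The 5 WT TAC hearts ran from 849 to 1280 with a median of 1141, against 304, 372 and 477 in WT sham hearts. Every TAC heart was above every sham heart of its genotype, and the spread was wider after TAC. The log2 fold change was 1.60 (SE 0.18) in IRS1KO, 1.49 (SE 0.18) in IRS2KO and 1.49 (SE 0.19) in WT hearts, with limma adjusted p-values of 1.34e-08, 7.06e-08 and 2.50e-07.

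C1qb, the B chain, had the largest fold change of the 3 subunits in each genotype. It averaged 1593 ± 567 normalized counts in IRS1KO TAC hearts and 415 ± 71.5 in IRS1KO sham hearts (SD, n = 6 each). It averaged 1453 ± 515 in IRS2KO TAC hearts and 441 ± 65.1 in IRS2KO sham hearts (SD, n = 6 each). It averaged 1303 ± 313 in WT TAC hearts (SD, n = 5) and 377 ± 43.4 in WT sham hearts (SD, n = 6). The lowest TAC value in each genotype (877, 699 and 882) stood above the highest sham value (537, 555 and 451). Fold changes were 3.83 in IRS1KO (log2 1.86, SE 0.22), 3.29 in IRS2KO (log2 1.64, SE 0.22) and 3.46 in WT hearts (log2 1.76, SE 0.23), with limma adjusted p-values of 1.51e-08, 1.93e-07 and 2.08e-07.

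C1qc, the C chain, followed the A chain closely. It averaged 1246 ± 386 normalized counts in IRS1KO TAC hearts and 408 ± 64.9 in IRS1KO sham hearts, 1192 ± 306 in IRS2KO TAC hearts and 416 ± 41.8 in IRS2KO sham hearts (SD, n = 6 each). In WT hearts it averaged 999 ± 161 after TAC (SD, n = 5) and 382 ± 43.2 after sham (SD, n = 6). Again no TAC heart reached down into the sham range of its genotype. The log2 fold changes were 1.56 (SE 0.17), 1.48 (SE 0.17) and 1.38 (SE 0.18) in IRS1KO, IRS2KO and WT hearts, with limma adjusted p-values of 5.39e-09, 2.13e-08 and 2.37e-07. Groups did not overlap, TAC above sham, for 20.5% of all tested genes in IRS1KO, 15.7% in IRS2KO and 17.2% in WT hearts, and for 5 of the 7 complement genes in each genotype.

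The ratio of C1qb to C1qa was slightly higher on average after TAC. It was 1.22 ± 0.104 in IRS1KO TAC hearts and 1.02 ± 0.0876 in IRS1KO sham hearts (SD, n = 6 each). It was 1.12 ± 0.101 in IRS2KO TAC hearts and 1.02 ± 0.118 in IRS2KO sham hearts (SD, n = 6 each), and 1.20 ± 0.113 in WT TAC hearts (SD, n = 5) and 0.991 ± 0.0835 in WT sham hearts (SD, n = 6). These ranges overlapped between TAC and sham in all 3 genotypes, and the ratios were not tested. The ratio of C1qc to C1qa stayed between 0.927 and 1.00 in the 6 group means. Over the 35 libraries, after the mean of each group was taken away, log2 levels of the 3 chains ran together, with Pearson r of 0.95 for C1qa with C1qb, 0.95 for C1qa with C1qc and 0.97 for C1qb with C1qc (Spearman rho 0.92, 0.93 and 0.95). Without the 2 libraries farthest from the median of the first gene of each pair, r was 0.92, 0.93 and 0.96. These correlations are a description over libraries that share their depth and cell content, with no test.

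Relative to single macrophage markers, the group means of C1qa after TAC were higher for Csf1r and Mertk and lower for Cd68 and Adgre1. Summed over 14 macrophage and monocyte markers, normalized counts ran from 7935 to 17946 in IRS1KO TAC hearts, against 3199 to 4220 in IRS1KO sham hearts. They ran from 6384 to 18583 in IRS2KO TAC hearts, against 3701 to 4542 in IRS2KO sham hearts, and from 8216 to 22072 in WT TAC hearts, against 3315 to 4140 in WT sham hearts. Of the 14 markers, 11 rose and 1 fell in IRS1KO, 10 rose in IRS2KO and 13 rose in WT hearts, and none was at 0 throughout a group. Their part in the rise of C1q was not tested. Per unit of Csf1r, the receptor of the macrophage growth factor CSF1, C1qa was 0.921 ± 0.0762 in IRS1KO TAC hearts and 0.640 ± 0.104 in IRS1KO sham hearts, 0.920 ± 0.141 in IRS2KO TAC hearts and 0.671 ± 0.0855 in IRS2KO sham hearts (SD, n = 6 each). In WT hearts it was 0.877 ± 0.113 after TAC (SD, n = 5) and 0.631 ± 0.0780 after sham (SD, n = 6). Per unit of Cd68, a lysosomal protein of macrophages, C1qa was lower after TAC: 2.08 ± 0.476 in IRS1KO TAC hearts and 4.67 ± 0.641 in IRS1KO sham hearts, and 2.59 ± 0.742 in IRS2KO TAC hearts and 5.93 ± 0.680 in IRS2KO sham hearts (SD, n = 6 each). In WT hearts it was 2.24 ± 1.02 after TAC (SD, n = 5) and 5.80 ± 1.12 after sham (SD, n = 6). No TAC ratio to Cd68 reached the sham ratios of its genotype, whereas the ratios to Csf1r overlapped in IRS2KO hearts and not in the other genotypes. Per unit of Adgre1, which encodes the macrophage antigen F4/80, the group means were also lower after TAC: 1.85 in IRS1KO TAC and 2.95 in IRS1KO sham hearts, 2.15 in IRS2KO TAC and 3.37 in IRS2KO sham hearts, and 2.35 in WT TAC and 3.37 in WT sham hearts. Per unit of Mertk, a receptor with which macrophages take up dying cells, they were 5.32 in IRS1KO TAC and 2.74 in IRS1KO sham hearts, 5.97 in IRS2KO TAC and 2.59 in IRS2KO sham hearts, and 4.69 in WT TAC and 2.28 in WT sham hearts.

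**Figure D2:**
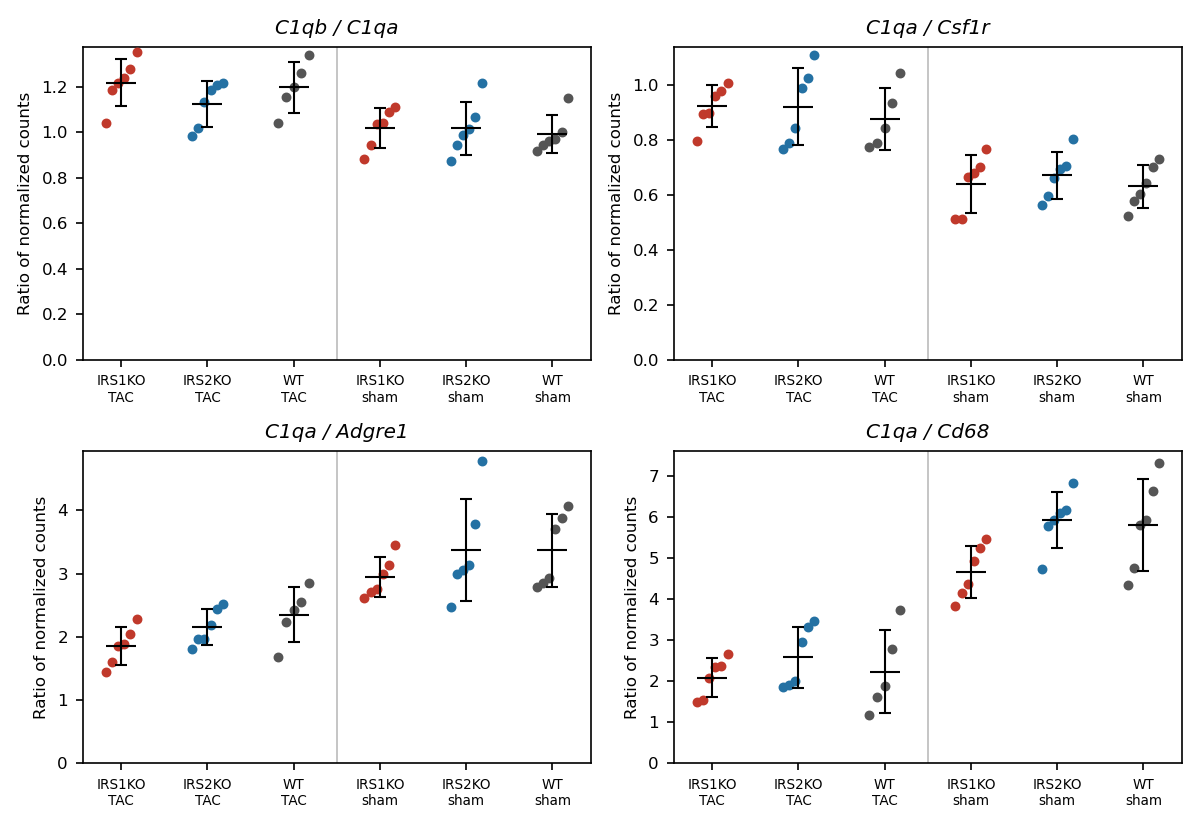
Ratios of normalized counts in each library, C1qb to C1qa and C1qa to Csf1r, Adgre1 and Cd68, by group. TAC groups are on the left of each panel and sham groups on the right. Points are single hearts and bars are the mean ± SD. The ratio of C1qa to Cd68 is lower in every TAC heart than in the sham hearts of its genotype. The ratio of C1qb to C1qa overlaps between TAC and sham in every genotype.

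C4b encodes the mouse complement C4 that is cleaved once C1q has started the classical pathway. It averaged 199 ± 45.5 normalized counts in IRS1KO TAC hearts and 142 ± 44.6 in IRS1KO sham hearts, and 271 ± 27.2 in IRS2KO TAC hearts and 165 ± 50.7 in IRS2KO sham hearts (SD, n = 6 each). In WT hearts it averaged 263 ± 36.6 after TAC (SD, n = 5) and 179 ± 36.2 after sham (SD, n = 6). TAC and sham overlapped in every genotype, with 2 of 6 IRS1KO, 3 of 6 IRS2KO and 4 of 5 WT TAC hearts above all sham hearts. The rise passed the test in each, with log2 fold changes of 0.50 (SE 0.17), 0.75 (SE 0.17) and 0.56 (SE 0.18) and limma adjusted p-values of 0.0127, 0.000417 and 0.0108. C4a is a near copy of C4b: 35.2% of the 50-base stretches of C4b exons also occur in C4a. C4a itself drew 23 reads in all IRS1KO TAC hearts and 18 in IRS1KO sham hearts, 20 in IRS2KO TAC and 17 in IRS2KO sham hearts, and 10 in WT TAC and 21 in WT sham hearts, and reads shared between the copies could not be split here, so the level of C4b is uncertain to that extent.

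C3 differed between IRS1KO hearts and both other genotypes after TAC. The 6 IRS1KO TAC hearts, in order of replicate, had 547, 689, 483, 482, 970 and 474 normalized counts. The 6 IRS2KO TAC hearts had 1624, 949, 875, 1703, 1248 and 770. WT TAC replicates 1, 2, 3, 5 and 6 had 3381, 1069, 1722, 1946 and 1077. All 6 IRS1KO TAC hearts lay below all 5 WT TAC hearts, and the highest of them, replicate 5, also overlapped the IRS2KO TAC hearts. After sham the values ran from 692 to 1009 in IRS1KO hearts, from 796 to 1094 in IRS2KO hearts and from 852 to 1381 in WT hearts, so the sham groups overlapped.

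Against their own sham hearts, IRS1KO TAC hearts averaged 608 ± 195 and IRS1KO sham hearts 832 ± 104 (SD, n = 6 each), a log2 fold change of −0.50 (SE 0.22, limma adjusted p = 0.0467), with 5 of 6 TAC hearts below all sham hearts. That call stood close to the threshold and was lost in 13 of 24 alternatives, among them edgeR (−0.48, adjusted p = 0.0646), DESeq2 (−0.46, adjusted p = 0.0654), equal library totals (−0.19, adjusted p = 0.421) and leaving out any of IRS1KO TAC replicates 1, 3, 4 and 6 or IRS1KO sham replicates 1, 2, 4, 5 and 6. IRS2KO TAC hearts averaged 1195 ± 397 and IRS2KO sham hearts 980 ± 125 (SD, n = 6 each), with 3 of 6 TAC hearts above all sham hearts (log2 0.23, SE 0.22, limma adjusted p = 0.368). That value was −0.04 without the 3 TAC libraries nearest to sham (limma adjusted p = 0.873) and 0.57, past the threshold, under equal library totals (limma adjusted p = 0.0152). WT TAC hearts averaged 1839 ± 945 (SD, n = 5) and WT sham hearts 1080 ± 224 (SD, n = 6), with 3 of 5 TAC hearts above all sham hearts (log2 0.66, SE 0.23, limma adjusted p = 0.0163). WT TAC replicate 1 had the highest C3 of all 35 libraries, and without it the rise in WT hearts was 0.40 (limma adjusted p = 0.115).

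Between genotypes after TAC, C3 was 3.03-fold lower in IRS1KO than in WT hearts (log2 fold change −1.51, SE 0.23, limma adjusted p = 3.14e-05). It was 1 of the 7 complement genes called lower there and 0 were called higher, beside 2.68% of all tested genes lower and 2.02% higher, and 1.32% of tested genes had all IRS1KO TAC hearts below all WT TAC hearts. Under equal library totals 69.8% of the calls in this contrast were higher, against 42.9% in the deposited scaling, and C3 stayed the 1 member called. Over its 23 alternatives the log2 fold change of C3 ran from −1.70 to −1.26 and the adjusted p from 3.29e-09 to 0.0183. Against IRS2KO hearts after TAC, C3 was 1.97-fold lower in IRS1KO hearts (log2 −0.96, SE 0.22, limma adjusted p = 0.00810), with 5 of 6 IRS1KO hearts below all IRS2KO hearts. This was 1 of the 7 genes called lower and 0 were called higher, beside 1.28% and 1.08% of all tested genes, with 61.8% of calls higher under equal library totals and 45.8% in the deposited scaling. Without the 3 TAC libraries nearest to sham the difference from IRS2KO was −0.69 (limma adjusted p = 0.0714), and with only those groups fitted its adjusted p was 0.0897. In IRS2KO against WT hearts after TAC, C3 differed by −0.55 (95% interval −1.02 to −0.08, limma adjusted p = 0.721, unadjusted p = 0.0219), and without those 3 libraries by −0.98 (limma adjusted p = 0.0320). limma called 0 of the 13695 genes in that contrast in either direction, edgeR and DESeq2 also 0, and 931 had an unadjusted p under 0.05, of which 1 was a complement member.

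After sham, the log2 difference of C3 was −0.36 in IRS1KO against WT hearts (limma adjusted p = 0.448), −0.12 in IRS2KO against WT hearts (adjusted p = 1) and −0.24 in IRS1KO against IRS2KO hearts (adjusted p = 0.592). limma, edgeR and DESeq2 called 0 of the 7 genes in any of these 3 sham contrasts, and 1, 0 and 0 had an unadjusted p under 0.05. All genes were called at 2.00% higher and 2.65% lower in IRS1KO against WT sham hearts (63.1% of calls higher under equal library totals, 43.0% as deposited), at 0% in IRS2KO against WT and at 3.67% higher and 4.64% lower in IRS1KO against IRS2KO (71.0% and 44.2%). In IRS2KO against WT sham hearts 534 genes had an unadjusted p under 0.05, and edgeR called 0 and DESeq2 2.

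The test that sets the TAC responses against each other did not call C3. Its log2 response to TAC was different by −1.15 in IRS1KO minus WT hearts (SE 0.32, 95% interval −1.79 to −0.51, unadjusted p = 0.000920, limma adjusted p = 0.183), in a contrast that called 0.0365% of genes higher and 0.0730% lower. It passed in 4 of the alternatives: library weights (−1.33, adjusted p = 0.0107), DESeq2 (−1.22, adjusted p = 0.0495), leaving out the 3 TAC libraries nearest to sham (−1.31, adjusted p = 0.0493) and leaving out IRS1KO TAC replicate 5 (−1.30, adjusted p = 0.0463). The response differed by −0.73 between IRS1KO and IRS2KO hearts (limma adjusted p = 0.344, unadjusted p = 0.0249) and by −0.43 between IRS2KO and WT hearts (limma adjusted p = 0.954). Without the 3 TAC libraries nearest to sham these became −0.45 (limma adjusted p = 0.403) and −0.86 (limma adjusted p = 0.215), in the other order of size. limma called 0 of the 7 members in any of these 3 response contrasts, beside 0.263% of genes higher and 0.146% lower for IRS1KO minus IRS2KO and 0% for IRS2KO minus WT. At an unadjusted p under 0.05 the members counted 1 for IRS1KO minus WT, 1 for IRS1KO minus IRS2KO and 0 for IRS2KO minus WT. edgeR called 0 members in each, and DESeq2 1 for IRS1KO minus WT and 0 in the others.

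IRS1KO TAC replicate 5, the highest of its group for C3, also had the most Irs1 of that group (80.3 normalized counts, others 0 to 26.7) and lay nearest to sham of its group on the first principal component (27.2). This describes 1 heart, and a link of C3 with Irs1 or with that component was not tested. Relative to fibroblast markers the TAC group means of C3 stood in the same order of genotypes. The 6 markers summed to 22713 to 43674 normalized counts in IRS1KO TAC hearts, against 18204 to 24910 in IRS1KO sham hearts, 23017 to 45088 in IRS2KO TAC hearts, against 23810 to 28410 in IRS2KO sham hearts, and 24707 to 37710 in WT TAC hearts, against 23383 to 26695 in WT sham hearts, with none at 0. After TAC 3 of the 6 rose and 2 fell in IRS1KO, 3 and 2 in IRS2KO, and 4 and 1 in WT hearts. The sum thus mixes opposite changes: in IRS1KO hearts Col1a1 averaged 24122 after TAC and 1267 after sham, and Gsn 3630 and 13151. The part of these markers in the level of C3 was not tested. The ratio of C3 to Dcn, the matrix proteoglycan decorin, was 0.152 ± 0.0400 in IRS1KO TAC hearts and 0.164 ± 0.0244 in IRS1KO sham hearts, and 0.264 ± 0.0442 in IRS2KO TAC hearts and 0.156 ± 0.0203 in IRS2KO sham hearts (SD, n = 6 each). It was 0.331 ± 0.156 in WT TAC hearts (SD, n = 5) and 0.174 ± 0.0388 in WT sham hearts (SD, n = 6). All 6 IRS2KO TAC ratios lay above all IRS2KO sham ratios, whereas the ratios of TAC and sham overlapped in IRS1KO and WT hearts. Dcn itself averaged 3985 normalized counts in IRS1KO TAC hearts and 5640 in WT TAC hearts. Per unit of Pdgfra, a fibroblast receptor, C3 was 0.937 in IRS1KO TAC hearts, 1.69 in IRS2KO TAC hearts and 2.40 in WT TAC hearts, against 1.73, 1.41 and 1.78 in the sham hearts of the same genotypes. Defining markers of hepatocytes, the main source of plasma C3, were low: their sum reached at most 93.5 normalized counts in any library, and Alb, which encodes albumin, was at 0 in every IRS2KO TAC, WT TAC, IRS1KO sham and IRS2KO sham library. Ahsg was the highest of them. It averaged 23.1, 14.3 and 34.3 in IRS1KO, IRS2KO and WT TAC hearts and 37.1, 59.3 and 42.0 in the sham hearts. It was the 1 hepatocyte marker that passed the filter, and was called lower after TAC in IRS2KO hearts only. The 5 adipocyte markers summed to at most 5.32.

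Ordered by group mean, C3 was highest in WT TAC hearts (1839), then IRS2KO TAC (1195), WT sham (1080), IRS2KO sham (980), IRS1KO sham (832) and IRS1KO TAC hearts (608). Each neighbouring pair in this order overlapped, and the difference within the lowest pair passed the test only as given above. Cfb, which encodes factor B, had at most 5 reads in any library. It drew 11 reads in all IRS1KO TAC hearts together and 2 in IRS1KO sham hearts, 11 in IRS2KO TAC and 5 in IRS2KO sham hearts, and 9 in WT TAC hearts and 0 in WT sham hearts. Single libraries had 0 to 5 reads, a count of 0 allows up to 3 reads per library, and no fold change is given. In the annotation 79.5% of Cfb exon bases (2246 of 2825) also belong to Gm20547, a gene on the same strand for which no value was used, and C2, its neighbour, shares 42.8% of its exon bases with it. The part of this overlap in the low counts was not tested.

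The fold changes of the 2 receptors were larger than those of the components in each genotype, though the 95% intervals of both receptors overlapped that of C1qb and genes were not tested against each other. C3ar1, the receptor of C3a, had lowest, median and highest values of 228, 595 and 1158 normalized counts in IRS1KO TAC hearts, against 61.1, 98.5 and 127 in IRS1KO sham hearts. The same values were 189, 685 and 742 in IRS2KO TAC hearts, against 71.0, 107 and 123 in IRS2KO sham hearts. In WT hearts they were 227, 457 and 909 after TAC, against 66.8, 80.3 and 94.0 after sham. TAC and sham did not overlap, though TAC hearts of 1 genotype differed by up to several fold among themselves. The log2 fold changes were 2.60 (SE 0.33), 2.35 (SE 0.33) and 2.48 (SE 0.35) in IRS1KO, IRS2KO and WT hearts, with limma adjusted p-values of 8.21e-08, 5.80e-07 and 8.66e-07.

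C5ar1 encodes the receptor of C5a. It averaged 191 ± 29.5 normalized counts in IRS1KO TAC hearts and 42.6 ± 13.7 in IRS1KO sham hearts, and 273 ± 140 in IRS2KO TAC hearts and 54.3 ± 13.0 in IRS2KO sham hearts (SD, n = 6 each). WT TAC replicates 1, 2, 3, 5 and 6 had 407, 131, 502, 421 and 126, against 41.4 to 64.6 in WT sham hearts. The WT TAC hearts thus fell into 3 high and 2 low values, all above sham, the 2 low ones being replicates 2 and 6, while the IRS1KO TAC hearts kept to a range of 163 to 229. IRS2KO TAC hearts were split too: replicates 1 and 4 had 127 and 94.7, and the others 252 to 429. WT TAC replicate 2 and these 2 IRS2KO hearts are the 3 TAC libraries nearest to sham on the first principal component. The log2 fold changes were 2.18 (SE 0.32), 2.14 (SE 0.32) and 2.34 (SE 0.34) in IRS1KO, IRS2KO and WT hearts, with limma adjusted p-values of 8.01e-07, 1.34e-06 and 1.26e-06. The ratio of C3ar1 to C5ar1 averaged 3.28 ± 1.43 in IRS1KO TAC hearts and 2.31 ± 0.642 in IRS1KO sham hearts, 2.16 ± 0.432 in IRS2KO TAC hearts and 1.94 ± 0.660 in IRS2KO sham hearts (SD, n = 6 each). In WT hearts it averaged 1.77 ± 0.739 after TAC (SD, n = 5) and 1.56 ± 0.440 after sham (SD, n = 6), and TAC and sham overlapped in each genotype. Neutrophils carry C5ar1 too. Of 8 neutrophil markers 7 were in the table, and they summed to 56.2 to 218 normalized counts in IRS1KO TAC hearts, against 23.8 to 40.9 in IRS1KO sham hearts, 32.6 to 163 in IRS2KO TAC hearts, against 15.4 to 36.2 in IRS2KO sham hearts, and 44.2 to 535 in WT TAC hearts, against 8.82 to 25.2 in WT sham hearts. Of the 2 that passed the filter, 1 rose in IRS1KO, 1 in IRS2KO and 2 in WT hearts, and Ngp was at 0 in every IRS2KO TAC and WT sham library. Their part in the level of C5ar1 was not tested.

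Between genotypes, the C1q subunits and receptors did not pass the test after TAC. In IRS1KO against WT hearts the log2 differences were 0.21 for C1qa (95% interval −0.18 to 0.60), 0.24 for C1qb (−0.22 to 0.70), 0.27 for C1qc (−0.09 to 0.63), 0.33 for C3ar1 (−0.38 to 1.03) and −0.51 for C5ar1 (−1.19 to 0.17), with limma adjusted p-values from 0.396 to 0.627. Without the 3 TAC libraries nearest to sham they were 0.13, 0.10, 0.17, 0.08 and −0.77, with C5ar1 nearest to the threshold (limma adjusted p = 0.0946). In IRS1KO against IRS2KO hearts they were 0.02 for C1qa, 0.14 for C1qb, 0.05 for C1qc, 0.16 for C3ar1 and −0.32 for C5ar1, and without those 3 libraries −0.26, −0.22, −0.20, −0.32 and −0.87, so that the first 4 changed sign and C5ar1 again came nearest to the threshold (limma adjusted p = 0.0608). In IRS2KO against WT hearts they were 0.19 for C1qa, 0.10 for C1qb, 0.22 for C1qc, 0.16 for C3ar1 and −0.19 for C5ar1, and without those 3 libraries 0.39, 0.33, 0.38, 0.41 and 0.10. With library weights C1qc passed in IRS1KO against WT hearts (0.42, limma adjusted p = 0.0471). C4b did not pass between genotypes either. Its log2 difference after TAC was −0.42 for IRS1KO against WT (95% interval −0.79 to −0.05, limma adjusted p = 0.180, unadjusted p = 0.0279). For IRS1KO against IRS2KO after TAC it was −0.47 (95% interval −0.83 to −0.12, limma adjusted p = 0.197, unadjusted p = 0.0107). For IRS1KO against WT after sham it was −0.37 (limma adjusted p = 0.294, unadjusted p = 0.0444). In each of these TAC contrasts 2 members, C3 and C4b, had an unadjusted p under 0.05.

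**Figure D3:**
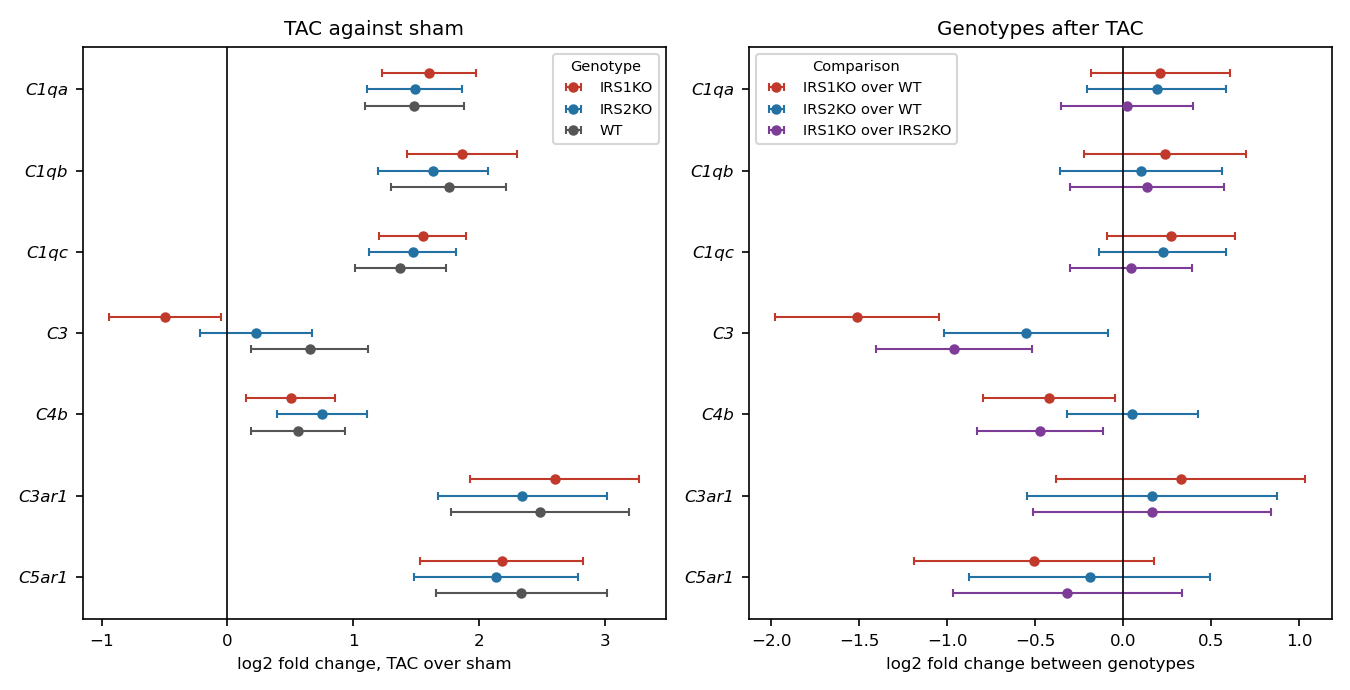
Log2 fold changes of the 7 tested complement genes, TAC over sham in each genotype (left) and between genotypes after TAC (right), with points for the limma estimate and bars for the 95% confidence interval. C1q subunits, C3ar1 and C5ar1 lie well above 0 in all genotypes after TAC, and C3 is the gene whose interval lies far below 0 for IRS1KO over WT (−1.51).

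Per kilobase of exon, the C1q chains were the most abundant members after TAC. In WT TAC hearts normalized counts per kilobase were 1198 for C1qb, 1036 for C1qa, 517 for C1qc, 358 for C3, 124 for C5ar1, 115 for C3ar1, 46.1 for C4b and 0.61 for Cfb. In IRS1KO TAC hearts the level of C3 per kilobase was 118, below that of C3ar1 at 151, whereas in WT TAC hearts it stood above C3ar1. In WT sham hearts C1qa had 368, C1qb 347, C3 210, C1qc 198, C4b 31.5, C5ar1 20.8 and C3ar1 18.5 per kilobase, so that both receptors stood below C4b after sham and above it after TAC.

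Around group means, C3ar1 followed the C1q chains (r 0.82 with C1qa, 0.88 with C1qb and 0.85 with C1qc over 35 libraries), C5ar1 less closely (0.60 with C1qa, 0.67 with C1qb, 0.64 with C1qc and 0.65 with C3ar1), and C3 ran at −0.30 with C1qa and 0.21 with C4b. The matching Spearman rho values were 0.78, 0.81 and 0.77 for C3ar1 and 0.59, 0.66, 0.67 and 0.59 for C5ar1, and −0.21 and 0.26 for C3. Among all other tested genes, those most like C1qa by this measure were Trem2 (r 0.90), Csrp2 (0.88), Tspo (0.88), Ctsb (0.88) and Serpinf1 (0.88), and those most like C3 were Ccl24 (0.72), 1700025G04Rik (0.68), Atf1 (0.67), Myl1 (0.66) and C1ra (0.65). Without the 2 libraries farthest from the median of the member, r was 0.86 for Trem2 with C1qa and 0.60 for Ccl24 with C3. These values describe libraries that share depth and cell content, and were not tested.

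Of 45 other complement genes in a list of the pathway, 40 were in the table and 24 passed the low-value filter. In IRS1KO hearts 10 were higher and 11 lower after TAC, beside 32.4% and 31.7% of all tested genes. In IRS2KO hearts 9 were higher and 12 lower, beside 31.3% and 31.1%, and in WT hearts 10 and 6, beside 28.3% and 26.6%. Under equal library totals these became 11 and 8, 11 and 5, and 14 and 4. The median log2 fold change was −0.14, −0.28 and 0.09 in IRS1KO, IRS2KO and WT hearts, and turned to 0.16, 0.06 and 0.35 under that scaling.

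Of the other receptors, 6 of 6 tested rose in IRS1KO, 4 in IRS2KO and 5 in WT hearts, and 0 fell, beside 32.4%, 31.3% and 28.3% of all tested genes higher. The counts were 6, 6 and 6 under equal library totals and 4, 5 and 4 with quantile normalization, and the calls of Cd93 in IRS1KO and C5ar2 in WT hearts were each lost in 11 of the alternatives. Itgam and Itgax, the alpha chains of complement receptors CR3 and CR4, were 9.16-fold and 9.86-fold higher in IRS1KO, 8.44-fold and 20.1-fold higher in IRS2KO and 13.7-fold and 23.7-fold higher in WT TAC hearts than in sham hearts of the same genotype. Their shared partner Itgb2 was 6.31-fold, 5.28-fold and 10.6-fold higher. The fold changes of Itgax rest on low sham means of 5.22, 3.05 and 4.62 normalized counts in IRS1KO, IRS2KO and WT hearts, and are uncertain. In WT TAC hearts Itgax averaged 109 ± 91.1 (SD, n = 5). Vsig4, a macrophage receptor that binds C3 fragments, averaged 42.8 normalized counts in IRS1KO TAC and 7.90 in IRS1KO sham hearts, 45.9 in IRS2KO TAC and 14.2 in IRS2KO sham hearts, and 36.6 in WT TAC and 17.5 in WT sham hearts. Vsig4 was lower in IRS1KO than in WT hearts after sham (log2 −1.14, limma adjusted p = 0.00278). Cfp, which encodes properdin, the stabiliser of the alternative pathway's convertase, rose 3.66-fold, 4.11-fold and 4.08-fold in IRS1KO, IRS2KO and WT hearts.

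More regulators fell than rose in the deposited scaling: 7 of 9 tested were lower and 1 higher in IRS1KO, 8 and 1 in IRS2KO and 4 and 1 in WT hearts, beside 31.7%, 31.1% and 26.6% of all tested genes lower, counts that became 4 and 1, 3 and 1, and 3 and 3 under equal library totals, with Cr1l turning from lower to above 0 in each genotype. The 1 that rose was Clu, which encodes clusterin, an inhibitor of the membrane attack complex, with 46681 normalized counts in IRS1KO TAC and 6507 in IRS1KO sham hearts, 45734 in IRS2KO TAC and 4758 in IRS2KO sham hearts, and 37920 in WT TAC and 5108 in WT sham hearts. Vtn, which encodes vitronectin, fell by 1.68, 1.16 and 0.92 on the log2 scale in IRS1KO, IRS2KO and WT hearts, and Cd46, a membrane cofactor for C3b cleavage, fell by 1.15, 0.94 and 1.04. The fall of Cd59b, an inhibitor of the membrane attack complex, in WT hearts was lost without WT TAC replicate 1. C7 and C8g, parts of the membrane attack complex and the 2 terminal genes tested, fell in IRS1KO hearts (log2 −1.63 and −1.13) and in IRS2KO hearts (−1.03 and −0.72), where C8g lost its call under equal library totals (−0.39, limma adjusted p = 0.0991). In WT hearts C8g fell too (−0.60, limma adjusted p = 0.0253), a call lost under equal library totals (−0.35, limma adjusted p = 0.179) and without any of WT TAC replicates 1 and 5 and WT sham replicates 3 and 6, and C7 had a log2 fold change of −0.48 (limma adjusted p = 0.151). Of 4 lectin-pathway genes, Masp1, a protease of that pathway, rose 2.90-fold in IRS1KO, 1.69-fold in IRS2KO and 1.77-fold in WT hearts, Colec12 rose in all 3 genotypes, and Colec11, a recognition lectin, fell by 0.94, 0.87 and 0.88. Fcna, which encodes ficolin A, rose 2.09-fold in IRS2KO and 2.38-fold in WT hearts, and its log2 fold change in IRS1KO hearts was 0.32 (limma adjusted p = 0.295).

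The 2 proteases that work with C1q, C1ra and C1s1, and several regulators were lower in IRS1KO than in WT hearts after TAC. C1s1 averaged 125 normalized counts in IRS1KO TAC and 229 in WT TAC hearts (log2 −0.86, SE 0.13, limma adjusted p = 3.76e-05), and C1ra 90.9 in IRS1KO TAC and 153 in WT TAC hearts (−0.73, SE 0.16, adjusted p = 0.00581). All 6 IRS1KO TAC hearts were below all WT TAC hearts for both. Cd59a, the main mouse CD59, averaged 312 ± 148 in IRS1KO TAC (SD, n = 6) and 764 ± 97.8 in WT TAC hearts (SD, n = 5), a log2 difference of −1.43 (SE 0.30, limma adjusted p = 0.00315). After sham Cd59a averaged 629 ± 292 in IRS1KO, 1044 ± 57.0 in IRS2KO and 1018 ± 62.8 in WT hearts (SD, n = 6 each). The limma adjusted p was 0.0403 for IRS1KO against IRS2KO, a call lost in 15 of the alternatives, and 0.0743 for IRS1KO against WT. Without IRS1KO sham replicate 1 the log2 difference from IRS2KO was −0.59 (limma adjusted p = 0.1425). Serping1, the C1 inhibitor, averaged 867 in IRS1KO TAC and 1289 in WT TAC hearts (−0.57, SE 0.11, adjusted p = 0.00148). In sham hearts C1s1 averaged 192 in IRS1KO and 235 in WT, C1ra 106 and 137, and Serping1 1065 and 1239. These sham differences had the same direction and did not pass the test. Masp1 was higher in IRS1KO TAC hearts, at 350 against 197 in WT TAC hearts (0.80, SE 0.17, adjusted p = 0.00387). In all, 6 of the 24 genes were lower and 1 higher in this contrast, beside 2.68% and 2.02% of all tested genes, and the call of Colec11 (log2 −0.61) was lost in 13 of the alternatives. The same 24 held 3 lower (C1s1, Cd59a and Colec11) and 1 higher (Masp1) in IRS1KO against IRS2KO hearts after TAC, beside 1.28% and 1.08% of all tested genes, and 0 called in IRS2KO against WT hearts. All 3 lower calls were lost without the 3 TAC libraries nearest to sham, with limma adjusted p-values of 0.155 for C1s1, 0.133 for Cd59a and 0.157 for Colec11. With only the compared groups fitted all 4 calls were lost, with limma adjusted p-values of 0.221 for Masp1, 0.244 for C1s1, 0.174 for Cd59a and 0.301 for Colec11. After sham 2 of the 24 were lower in IRS1KO against WT hearts (Colec12 and Vsig4), beside 2.65% of all tested genes, and 5 in IRS1KO against IRS2KO hearts, Cd59a among them, beside 4.64%, and 0 were higher in either. Each contrast that sets TAC responses against each other called 0 of the 24. All tested genes were called there at 0.0365% higher and 0.0730% lower for IRS1KO minus WT. For IRS1KO minus IRS2KO these shares were 0.263% and 0.146%.

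**Figure D4:**
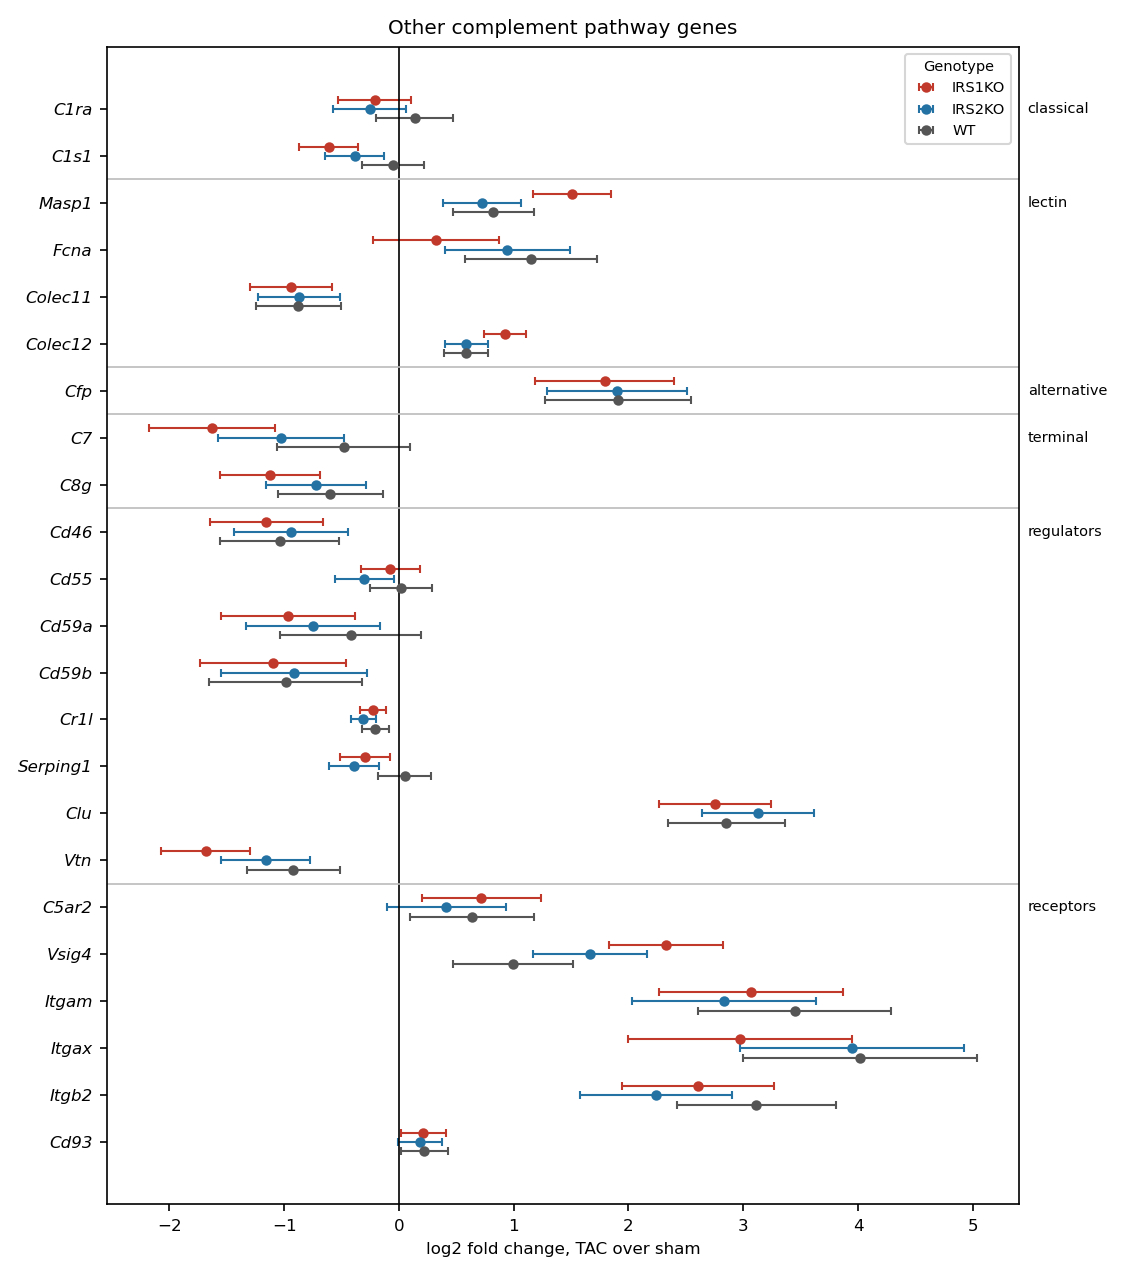
Log2 fold changes, TAC over sham, of other complement pathway genes that passed the low-value filter, by class and genotype, with points for the limma estimate and bars for the 95% confidence interval. Clu and the integrin receptor genes lie far above 0 in all 3 genotypes, and most other regulators and the terminal genes lie below 0 in the deposited scaling, fewer of them under equal library totals.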

How the data were processed

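The data are RNA-seq libraries of 35 mouse heart apices. Per the labels' protocols, total RNA was extracted with the mirVana kit and libraries made with the TruSeq stranded mRNA kit. The submitters' processing notes name HISAT2 2.0.6, HTSeq 0.7.1, DESeq2 and GRCm38, with no role or order. The deposited values are a signal per gene, gene counts divided by size factors: 100% of values came out as whole reads once each library's step was found, within a tolerance of 0.001. Strand and overlap settings of the counting are not given in the sources used here.

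The 8 genes and the gene lists were chosen with earlier results of these data known. Symbols came from GENCODE vM21 (GRCm38), matched by identifier for 26904 of 27012 genes (99.6%). Of these, 13695 genes with a mean of at least 10 were tested with limma 3.58.1 (trend and robust) in R 4.3.3 on log2(value + 1), with a mean per group over all 6 groups, two-sided, with Benjamini-Hochberg adjustment and a threshold of 0.05. Fold changes are ratios of deposited group means. Log2 fold changes use log2(value + 1) and so understate changes of low genes. The method was tested on simulated data, whose results are not given here and are not used for any call. Genes named are all 8 members, listed pathway and marker genes, and the 5 genes most like C1qa and C3 by correlation around group means. Cfb was not tested. The values of 1 listed pathway gene are not reported here, though counts over its list include it.

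The alternatives were a pseudocount of 0.5 or 5, no filter, a mean of at least 50, equal library totals, quantile normalization, the compared groups alone, library weights, a replicate block, the recovered reads tested with edgeR 4.0.16 or DESeq2 1.42.0, and leaving out each library. Dropping 3 TAC libraries that lay near sham was added after the data were seen. On the recovered reads edgeR called 8871, 8534 and 7460 genes for TAC against sham in IRS1KO, IRS2KO and WT hearts, and limma on the deposited values 8777, 8546 and 7515. Limits from counts cover counting error only. The labels name separate samples but not separate litters or operation days, so p-values measure the spread between these samples. No 2 libraries of a group agreed within sampling noise (lowest chi-square per degree of freedom 2.42 over 85 pairs).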

Additional observations from a re-analysis of the deposited data

Results flagged for a closer look

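Among 47 sets of one gene in one group, 2 held a heart far from the others, and chance alone flags about 1 set in 20. C4b in IRS2KO sham hearts had its highest value, 261.7 normalized counts, in replicate 2, away from the other 5 hearts. Cfb in IRS2KO sham hearts had its highest value, 3.69 normalized counts, in replicate 1, where 0 or 1 read was counted in each of the other 5.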

How the results depend on the processing

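Over 106 single-gene results and 2525 alternatives, 2369 kept direction and side of the threshold, 144 lost the call, 6 gained it and 6 changed sign. For TAC against sham the calls of C1qa, C1qb, C1qc, C4b, C3ar1 and C5ar1 held in every alternative run and every genotype. The count of members called lower in IRS1KO hearts (1, C3) became 0 with no filter, with equal library totals, with edgeR and with DESeq2, and ran from 0 to 1 when 1 library was left out. The count higher in IRS1KO against WT hearts after TAC became 1 (C1qc) with library weights. The count lower in IRS2KO against WT hearts after TAC became 1 (C3) without the 3 TAC libraries nearest to sham. The count lower in IRS1KO against IRS2KO hearts after TAC became 0 without those 3 libraries and with only the compared groups fitted (C3, adjusted p = 0.0897). The count lower for the TAC response of IRS1KO minus WT became 1 (C3) with library weights, with DESeq2 and without those 3 libraries, and ran from 0 to 1 when 1 library was left out. Equal library totals turned Cr1l to 0.0836 in IRS1KO, 0.0275 in IRS2KO and 0.0516 in WT hearts, Serping1 to 0.0117 in IRS1KO and Cd55 to 0.0317 in IRS2KO hearts, since the median gene moves up there. C3 for TAC against sham in IRS2KO hearts was −0.0421 without the 3 TAC libraries (adjusted p = 0.873), and 0.57 with equal totals (adjusted p = 0.0152), where it passed. Elsewhere the cause was not tested.

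Calls over all genes moved by more than 1.5 times in the genotype contrasts. IRS1KO against WT sham hearts had 637, with 1483 when only the compared groups were fitted and 1795 with library weights, and IRS1KO against IRS2KO sham hearts 1137, with 2148 and 2575. IRS1KO against WT after TAC had 643, with 228 and 2183 and 369 to 1313 when 1 library was left out. IRS1KO against IRS2KO after TAC had 323, with 140 with only the compared groups and 494 without the 3 TAC libraries. IRS2KO against WT had 0 in both operations, with 31 (compared groups) and 23 (weights) after sham and 405 without the 3 libraries after TAC. The response contrast IRS1KO minus WT had 15, with 7 (equal totals), 192 (weights), 54 (DESeq2), 25 (without the 3 libraries) and 2 to 53 when 1 library was left out. That of IRS2KO minus WT had 0, with 4 without the 3 libraries, and that of IRS1KO minus IRS2KO 56, with 21 to 360 over all alternatives but single libraries left out and 17 to 180 over those.

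The labels do not say that a replicate number marks a shared litter or day, and 38 of 85 same-numbered pairs had a correlation of deviations over 0.1 (range −0.603 to 0.57, median 0.0878, against −0.0242 for different numbers), so the samples were treated as sharing only a number. As a hint from the data, 15 of 35 libraries correlated best with their own number. With the replicate number as a block, 7, 6 and 7 members were called for TAC against sham in IRS1KO, IRS2KO and WT hearts, the same counts as without it, and the call of C5ar2 in WT hearts was lost (adjusted p = 0.0676). Reads per library limit Cfb alone among the members.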
